A study of Mus musculus with 16 samples.

Results

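The 105900 SINE B4 copies described here are the rows of a repeat table that carry the B4 family name and drew at least 5 reads in at least 2 of 16 libraries, out of 308556 B4 copies and 4929379 repeat copies in all. The libraries held RNA bound to chromatin from E14TG2a mouse embryonic stem cells, a feeder-independent line, grown with LIF (1000 U per ml), the MEK inhibitor PD0325901 (1 µM) and the GSK3 inhibitor CHIR99021 (3 µM). The 8 groups of 2 libraries ectopically expressed IDR-deleted KDM4A, full-length KDM4A, IDR-deleted KDM4B, full-length KDM4B, IDR-deleted KDM6A (UTX), full-length KDM6A, IDR-deleted KDM6B or full-length KDM6B. The IDR is an intrinsically disordered region, called cIDR in the titles and IDR in the genotypes. Which residues were removed, which promoter drove the constructs and whether the cells were single clones are not given in the sources used here. Every group carried a construct, so each comparison sets an IDR-deleted protein against its full-length form. Nothing in the labels ties the 2 libraries of a group to separate cultures. The p-values therefore rest on the spread of these libraries alone, which may be technical.

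B4 is a short interspersed element of rodents whose front part resembles the tRNA-derived ID element and whose back part resembles B1. Like other SINEs it codes for no protein, and its internal promoter is of the RNA polymerase III type. Many copies sit in introns, where they are also carried along in transcripts of RNA polymerase II that start at the gene's own promoter, and others lie beyond gene ends, where transcription can run on. KDM4A and KDM4B remove methyl groups from H3K9 and H3K36, and KDM6A and KDM6B remove them from H3K27.

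The members were chosen by their read counts in these libraries, so being read is no result about them. Of 175392 B4 copies inside gene spans (between the first and last base of a gene of the deposited gene table, GRCm39), 89658 were members (51.1%), and of 133164 outside all spans, 16242 (12.2%). A copy that touched a span counted as inside. No read at all fell on 22.3% of the copies inside and on 55.0% of those outside. Members held 98.4% of all B4 reads, with a median length of 149 bases against 141 for all B4 copies. By the same rule 139218 of 492046 B1 copies (the Alu family of the table) and 143797 of 346646 B2 copies would be members. The members inside touched 12549 genes, and 5996 of them (6.69%) overlapped an exon.

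The members were read unevenly. A member had a median of 11.2 reads per library on average over the 16 libraries, and the range ran from 0.625 to 14683. The 7747 copies with 5 reads in exactly 2 libraries, just inside the rule, averaged 0.625 to 5.88 reads with a median of 1.94, and the 14902 copies with 5 reads in exactly 1 library, just outside it, averaged 0.312 to 3.38 with a median of 1.25. Reads reached 5 in every group for 56632 members and in a single group for 847, of which 218 passed through IDR-deleted KDM6A and 23 through IDR-deleted KDM4A. Inside gene spans the 100 most-read copies held 3.24% of B4 reads, and outside they held 17.1%.

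Libraries held 32739117 to 54890756 gene reads and 20313223 to 47548396 repeat reads, of which 7.93% to 9.25% were on B4. Kdm6a stood at 415 to 441 CPM (counts per 1e6 reads, scaled by the genes) in the 4 KDM6A libraries of both forms, against 95.7 to 156 CPM in the other 12. Kdm4a, Kdm4b and Kdm6b did not separate their own libraries from the rest, at 206 to 300 against 165 to 272 CPM, 85.4 to 103 against 74.9 to 103 CPM, and 78.1 to 96.4 against 69.1 to 81.4 CPM. All 10 embryonic stem cell markers were present, with a summed level of 1992 to 2877 CPM, while 6 primitive endoderm markers summed to 7.39 to 31.2 CPM, 6 trophectoderm markers to 15.0 to 39.8 CPM and 6 neural markers to 100 to 193 CPM. The 6 fibroblast markers summed to 2576 to 4952 CPM, nearly all of it Fn1 (2567 to 4920 CPM), with Col3a1 at 0 to 0.230 CPM. The part of these markers in the B4 results was not tested.

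Inside gene spans, B4 RNA fell upon IDR deletion in KDM4A, KDM4B and KDM6B and rose slightly in KDM6A. These sums were taken over all B4 copies, with no filter on reads. The 2 IDR-deleted KDM4A libraries held 54894 and 55903 CPM on B4 copies inside genes, against 64126 and 65269 CPM in the full-length KDM4A libraries. For KDM4B the values were 65273 and 66330 CPM in IDR-deleted and 72506 and 73097 CPM in full-length libraries. For KDM6A they were 75084 and 77214 CPM in IDR-deleted and 72419 and 72592 CPM in full-length libraries. For KDM6B they were 38982 and 39076 CPM in IDR-deleted and 51694 and 50049 CPM in full-length libraries. In none of the 4 pairs did the groups overlap. In bulk RNA, fewer cells with a transcript and less of it per cell cannot be told apart.

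The make-up of the libraries moved with these groups. Repeat reads per 100 gene reads were 60.9 and 62.0 in IDR-deleted KDM4A and 80.4 and 82.2 in full-length KDM4A. In KDM6B they were 50.1 and 50.2 in IDR-deleted and 59.7 and 58.6 in full-length libraries, so the KDM6B and IDR-deleted KDM4A libraries lay below the other 10, which held 80.4 to 95.4. Mitochondrial reads made up 0.357% and 0.411% of gene reads in IDR-deleted KDM4A, against 0.199% and 0.233% in full-length KDM4A. In KDM6B they made up 0.659% and 0.691% in IDR-deleted and 0.536% and 0.531% in full-length libraries. KDM4B had 0.225% and 0.258% in IDR-deleted and 0.170% and 0.192% in full-length libraries, and in KDM6A the groups overlapped, with 0.227% and 0.265% in IDR-deleted and 0.214% and 0.240% in full-length libraries. The part of library make-up in the B4 results was not tested.

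In edgeR's quasi-likelihood fit of 114 family-by-place sums the log2 fold change inside genes was -0.22 ± 0.02 (SE, adjusted p = 1.2e-06) for KDM4A, where 77.2% of all sums were called. It was -0.15 ± 0.02 (adjusted p = 0.00010) for KDM4B, with 52.6% called, and 0.07 ± 0.02 (adjusted p = 0.037) for KDM6A, with 16.7% called. KDM6B gave -0.38 ± 0.02 (adjusted p = 3.2e-08), with 50.9% called. These directions hold relative to the genes. Scaled by the repeat families themselves, the B4 sum inside genes was 0.25 higher in KDM4A and 0.04 higher in KDM4B, and scaled by the ERCC spike-in RNAs it was -0.14 in KDM6A, which did not pass. The KDM6A call was also lost without IDR-deleted replicate 2 (0.05) or either full-length library (0.07 each).

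**Figure D1:**
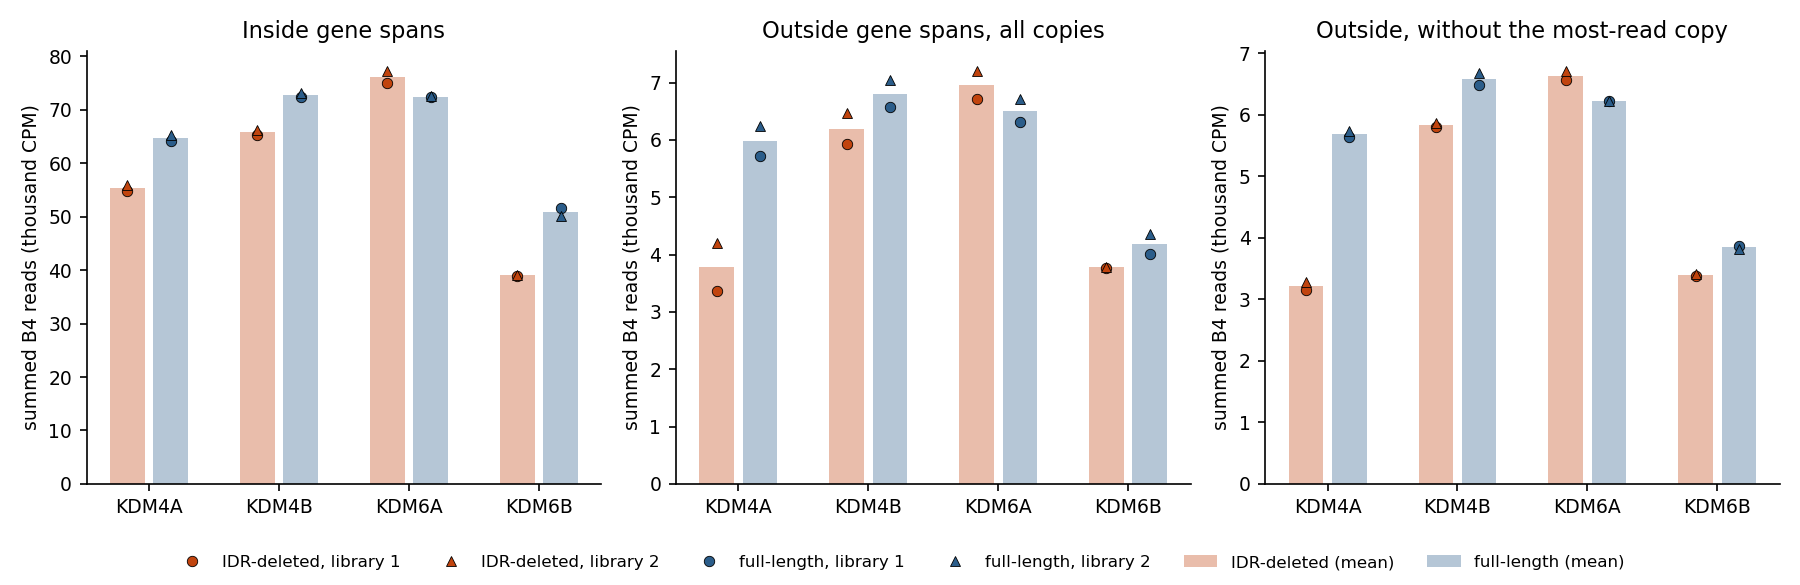
Summed reads of B4 copies in CPM (y axis, shown divided by 1000) for each demethylase (x axis), inside gene spans (left), outside them (middle) and outside them without the most-read copy (right). Bars are means of 2 libraries and points are single libraries; in the right panel IDR-deleted KDM4A stands at 3156 and 3275 CPM, against 5634 and 5743 CPM in full-length KDM4A.

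Outside gene spans a single copy carried much of the spread. It is a 77-base copy on chromosome 18, 1100 bases from the nearest gene span, and it drew 6.08% of all B4 reads outside genes. It stood at 207 and 933 CPM in the IDR-deleted KDM4A libraries and at 82.0 and 499 CPM in the full-length ones. In KDM4B it stood at 116 and 594 CPM in IDR-deleted and at 86.1 and 367 CPM in full-length libraries. In KDM6A it stood at 148 and 491 CPM in IDR-deleted and at 88.9 and 488 CPM in full-length libraries, and in KDM6B at 377 and 370 CPM in IDR-deleted and at 151 and 529 CPM in full-length libraries. In 7 of the 8 groups the library numbered 2 was higher, by 3.32-fold to 6.09-fold, and the exception was IDR-deleted KDM6B (0.980-fold). The copy therefore separated library numbers more than it separated IDR-deleted from full-length cells.

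**Figure D2:**
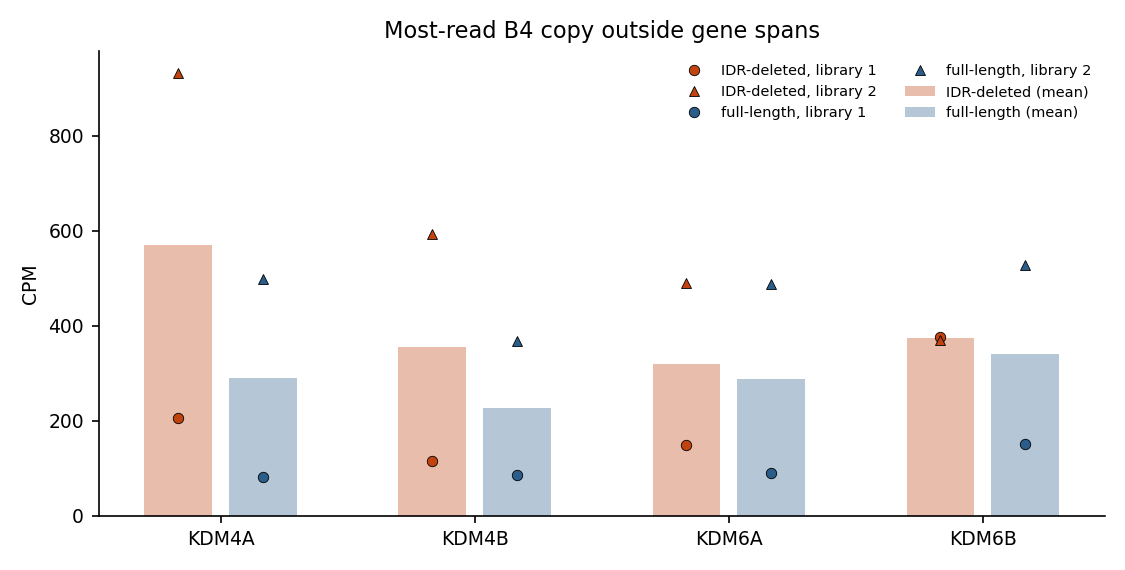
CPM of the most-read B4 copy outside gene spans (y axis) for IDR-deleted and full-length libraries of each demethylase (x axis), with bars for means and points for single libraries. In IDR-deleted KDM4A the 2 libraries stand at 207 and 933 CPM, and only in IDR-deleted KDM6B are they close, at 377 and 370 CPM.

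A second 77-base copy (GRCm39 chromosome 6, 128816012 to 128816088, plus strand), the outside copy with the highest level per length among those named, ran the same way. It had 25.8 and 75.1 CPM in IDR-deleted KDM4A and 11.5 and 45.0 CPM in full-length KDM4A libraries, and the library numbered 2 was higher in all 8 groups. Another (chromosome 6, 128737063 to 128737139, minus strand) was irregular, at 52.8 and 25.2 CPM in IDR-deleted KDM4B and 3.86 and 106 CPM in full-length KDM4B libraries. Of 5417 B4 copies with at least 100 reads on average, 5 had a median excess of more than 1 on the log2 scale in the libraries numbered 2, and 0 in those numbered 1.

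Over all outside copies, B4 RNA fell in KDM4A. The sums were 3363 and 4208 CPM in IDR-deleted KDM4A, against 5716 and 6243 CPM in full-length KDM4A libraries, a log2 fold change of -0.66 ± 0.10 (adjusted p = 0.00018). With the fit limited to the 4 KDM4A libraries, adjusted p was 0.054. The changes in KDM4B (-0.14 ± 0.10, adjusted p = 0.27), KDM6A (0.10 ± 0.10, adjusted p = 0.59) and KDM6B (-0.15 ± 0.10, adjusted p = 0.27) did not pass, and their SE includes the spread of the most-read copy.

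Without the most-read copy of each family and place, a setting chosen after the data were seen, the SE dropped to 0.02 and all 4 demethylases passed. The outside sum was 3156 and 3275 CPM in IDR-deleted KDM4A and 5634 and 5743 CPM in full-length KDM4A, a log2 fold change of -0.82 (adjusted p = 3.7e-14). It was 5805 and 5869 CPM in IDR-deleted KDM4B and 6486 and 6677 CPM in full-length KDM4B (-0.17, adjusted p = 1.9e-05). In KDM6A it was 6563 and 6705 CPM in IDR-deleted and 6216 and 6226 CPM in full-length libraries (0.09, adjusted p = 0.017). In KDM6B it was 3387 and 3419 CPM in IDR-deleted and 3865 and 3822 CPM in full-length libraries (-0.18, adjusted p = 8.9e-06). These values are from edgeR with all 16 libraries. For any difference among the 8 groups, 98 of 112 sums were called in this setting. The directions hold relative to the genes. Scaled by the repeat families themselves, the sum over all outside copies was higher in IDR-deleted KDM4B and KDM6B, and its fall in KDM4A did not pass.

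Across the 8 groups the levels ran in nearly one order in both places, and reads on all repeats ranked the groups as B4 inside genes did. Repeat reads per 100 gene reads ran from 92.7 and 95.4 in IDR-deleted KDM6A to 50.1 and 50.2 in IDR-deleted KDM6B. Inside genes IDR-deleted KDM6A was highest (76149 ± 1506 CPM, SD, n = 2), followed by full-length KDM4B and full-length KDM6A, whose libraries overlapped (72801 ± 418 and 72506 ± 123 CPM). Then came IDR-deleted KDM4B (65801 ± 747 CPM), full-length KDM4A (64698 ± 809 CPM), IDR-deleted KDM4A (55398 ± 713 CPM), full-length KDM6B (50871 ± 1163 CPM) and IDR-deleted KDM6B (39029 ± 66.5 CPM), with no overlap between neighbours. Outside genes, without the most-read copy, IDR-deleted KDM6A (6634 ± 101 CPM) overlapped full-length KDM4B (6581 ± 135 CPM), and the other neighbours did not overlap. The one change of place was IDR-deleted KDM4A, which stood sixth inside and last outside (3216 ± 83.8 CPM, below IDR-deleted KDM6B at 3403 ± 22.7 CPM). A test of any difference among the 8 groups passed inside (F = 498, adjusted p = 1.1e-11) and outside (F = 28.7, adjusted p = 2.6e-05), where 90.4% of sums were called (edgeR). Scaled by the repeat families themselves, the test outside did not pass (F = 2.32, adjusted p = 0.14, edgeR).

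The ratio of outside to inside reads is taken within a library and so does not depend on scaling. B4 reads outside genes were 5.8% and 7.0% of B4 reads in IDR-deleted KDM4A, against 8.2% and 8.7% in full-length KDM4A. In KDM6B they were 8.8% in each IDR-deleted library and 7.2% and 8.0% in full-length libraries. In limma's fit of 39 families the log2 ratio fell by 0.44 ± 0.09 in KDM4A (SE, adjusted p = 0.0013), where 82.1% of families were called and the median family was at -0.56. The differences were 0.01 ± 0.09 in KDM4B (adjusted p = 0.93, 33.3% of families called), 0.02 ± 0.09 in KDM6A (adjusted p = 0.86, 0.0% called) and 0.24 ± 0.09 in KDM6B (adjusted p = 0.054, 56.4% called). Without IDR-deleted KDM4A replicate 1 the KDM4A value was -0.29, and it still passed. In KDM6B the median family was at 0.21. Without the most-read copy the ratio was -0.60 in KDM4A, where 32 of 36 families were called and the median family was at -0.64. In KDM6B it was then 0.21 (adjusted p = 3.1e-07, limma), with 26 of 36 families called and the median family again at 0.21.

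Distance from genes gave different patterns for the 4 demethylases, described here by summed CPM without the most-read copy and without a test. In KDM4A the log2 difference was -0.15 for copies that overlapped an exon, -0.23 for intronic copies, -0.75 for copies up to 1 kb from a span and -1.05 for copies over 50 kb away. In KDM4B it was -0.15 in introns, -0.08 up to 1 kb and -0.50 over 50 kb away. In KDM6B it ran the other way, with -0.40 in introns, -0.25 up to 1 kb, -0.04 at 10 to 50 kb and 0.12 over 50 kb away. KDM6A lay between 0.02 and 0.13 in every zone. The IDR-deleted and full-length libraries overlapped only at 10 to 50 kb in KDM6A.

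The level per length fell off with distance as well, at 4.16 CPM per kb for exon-overlapping copies, 2.26 for intronic ones, 0.876 up to 1 kb outside and 0.0567 over 50 kb away. Copies downstream of the nearest gene were read more than copies upstream, with 1.24 against 0.383 CPM per kb up to 1 kb away, and 10265 members outside genes lay downstream against 5973 upstream. Over 50 kb away the KDM4A difference was -1.39 downstream and -0.72 upstream. Within genes, copies on the gene's own strand had 2.96 CPM per kb and copies on the opposite strand 1.83, although strand was not used in the counting. In KDM4A the difference was -0.17 for copies on the gene's strand and -0.29 for those on the opposite strand.

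**Figure D3:**
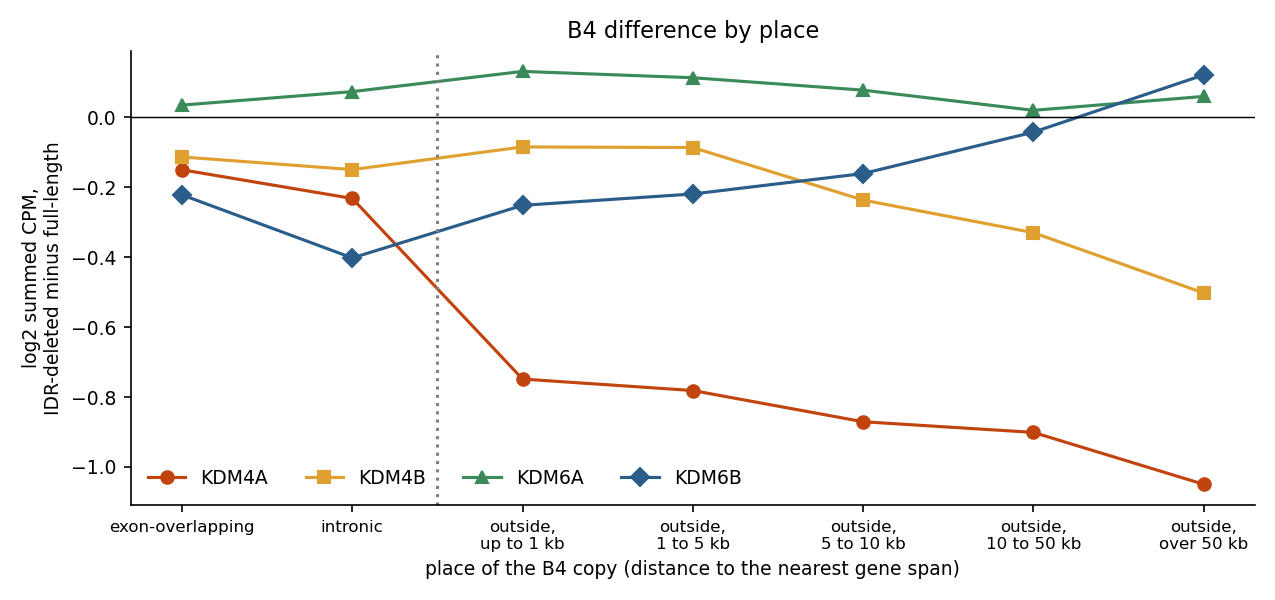
Difference in log2 summed CPM of B4 copies, IDR-deleted minus full-length (y axis), by place of the copy from exon and intron to over 50 kb outside gene spans (x axis), 1 line per demethylase, without the most-read copy. From exons to over 50 kb the KDM4A line runs from -0.15 to -1.05, KDM4B from -0.11 to -0.50, and KDM6B from -0.22 to 0.12.

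B1 and B2, the other abundant rodent SINEs, served as the comparison. B1 derives from the signal recognition particle RNA and B2 from a tRNA. Inside genes B1 changed by -0.16 ± 0.03 in KDM4A, -0.11 ± 0.03 in KDM4B, 0.08 ± 0.03 in KDM6A (which did not pass, adjusted p = 0.067) and -0.36 ± 0.03 in KDM6B (edgeR). B2 inside genes changed by -0.15, -0.12, 0.07 and -0.35 in that order. Outside genes B1 stood at -0.72 ± 0.02 in KDM4A, near B4, while B2 stood at -0.28 ± 0.05. In KDM6B B2 outside was 0.13 ± 0.05 (adjusted p = 0.053), against -0.17 ± 0.02 for B1.

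Within libraries, B4 was lower relative to B2 on average over the 4 deletions. The mean log2 difference of B4 to B2 outside genes was -0.20, with KDM4A at -0.39, KDM4B at -0.08, KDM6A at -0.04 and KDM6B at -0.28 (exact two-sided permutation over 1296 labelings within demethylases, p = 0.0046, adjusted p = 0.012 over 5 measures). Inside genes B4 was lower than B1 by -0.03 (adjusted p = 0.012) and than B2 by -0.03 (adjusted p = 0.013, both exact permutation). The ratio of B4 to B1 outside was 0.01 (p = 0.80) and the outside-to-inside ratio of B4 was -0.04 (p = 0.64, both exact permutation), with opposite signs in KDM4A and KDM6B. Without the most-read copy the ratio of B4 to B1 outside was -0.047 (adjusted p = 0.0077, exact permutation), and below 0 in all 4 demethylases, from -0.11 in KDM4A to -0.011 in KDM6B. The smallest p these labelings can give is 0.0015. Without the KDM4A libraries, and likewise without the KDM6B libraries, none of these measures passed (B4 to B2 outside was -0.13 and -0.17, adjusted p = 0.069 by exact permutation in each case).

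**Figure D4:**
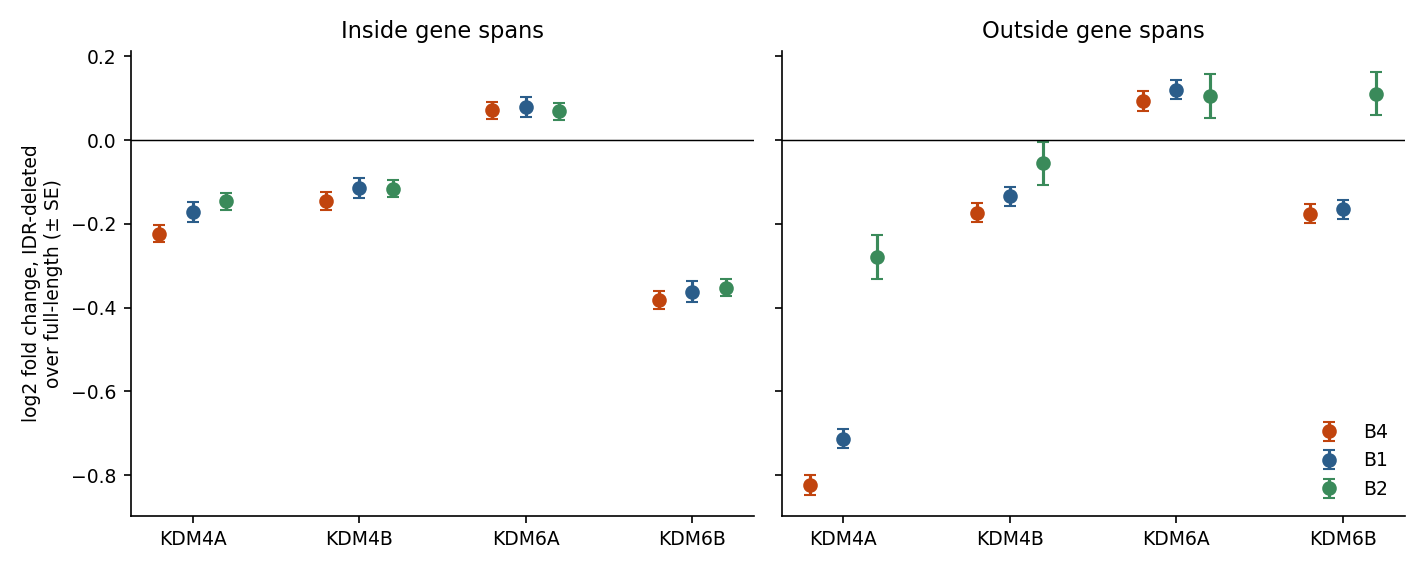
Log2 fold change of summed reads, IDR-deleted over full-length, with SE (y axis) for B4, B1 and B2 in each demethylase (x axis), inside (left) and outside (right) gene spans, without the most-read copy of each family and place. Outside genes in KDM4A B4 stands at -0.82, B1 at -0.71 and B2 at -0.28.

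Single copies were tested in 1 fit of 716086 repeat copies, of which 77503 were B4 members (68934 inside and 8569 outside genes) after a filter for low reads. The counts that follow describe the members, since the rule used the same reads. In KDM4A 2381 copies inside genes were higher and 8914 lower in IDR-deleted cells at adjusted p under 0.05 (edgeR), 16.4% of those tested, against 17.6% of all repeat copies inside genes (3.61% higher, 14% lower). Outside genes 82 were higher and 2047 lower, or 24.8%, against 29.5% of all copies (1.63% higher, 27.9% lower). The median log2 fold change of the tested B4 copies was -0.30 inside and -1.02 outside, where all copies had -0.34 and -1.03.

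In KDM4B 592 copies inside genes were higher and 1737 lower (3.38%, against 3.89% of all copies, 0.945% higher and 2.94% lower), and outside 117 were higher and 296 lower (4.82%, against 9.43%, 1.71% higher and 7.72% lower). In KDM6A the counts were 30 higher and 24 lower inside (0.0783%, against 0.12%, 0.0819% higher and 0.0379% lower) and 7 higher and 4 lower outside (0.128%, against 0.321%, 0.257% higher and 0.0636% lower). DESeq2 called more of them, 87 higher and 34 lower inside and 11 higher and 8 lower outside. In KDM6B 74 were higher and 2952 lower inside (4.39%, against 4.76%, 0.202% higher and 4.56% lower), and 23 higher and 113 lower outside (1.59%, against 2.46%, 1.05% higher and 1.41% lower). The B4 shares were thus near or below those of all repeat copies in each contrast and place. Scaled by ERCC RNAs, the median gene stood at -0.70, -0.18, -0.21 and -0.38 in the order KDM4A, KDM4B, KDM6A and KDM6B. B4 copies inside genes then split into 444 higher and 25728 lower in KDM4A and 342 and 3672 in KDM4B. In KDM6A they split into 6 and 78, and in KDM6B into 73 and 15234. Outside genes ERCC scaling gave 35 higher and 4040 lower in KDM4A and 76 and 518 in KDM4B. In KDM6A the outside counts were 2 and 13, and in KDM6B 19 and 790. The DESeq2 and ERCC counts, and those that follow with 1 library left out, stand without the share of all repeat copies. They describe the setting and are no result about B4. Leaving out 1 library of the contrast lowered the counts inside genes to 6939 to 7781 in KDM4A, 942 to 1053 in KDM4B, 7 to 14 in KDM6A, with 1127 to 1777 in KDM6B.

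Of 2033 B4 copies lower in KDM4B, 1324 (65.1%) were also lower in KDM4A, where they made up 12.1% of 10961. Of 3065 lower in KDM6B, 1022 (33.3%) were lower in KDM4A, and 255 (8.32%) in KDM4B. Of 709 copies higher in KDM4B, 187 (26.4%) were also higher in KDM4A, where they made up 7.59% of 2463. These contrasts share no libraries, but they come from 1 fit with a common dispersion trend and 1 read filter over all 16 libraries. The same overlap was not taken among all repeat copies, so it is not shown to be particular to B4. Over both places 19.5% of all repeat copies were called in KDM4A (3.28% higher, 16.3% lower), 4.8% in KDM4B (1.07% and 3.73%), 0.153% in KDM6A (0.111% and 0.0422%) and 4.38% in KDM6B (0.342% and 4.04%).

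Intronic copies were compared with the gene that holds them, where there was only 1. Across 60514 such copies the Pearson correlation of the copy's and the gene's log2 fold change was 0.50 in KDM4A, 0.53 in KDM4B, 0.30 in KDM6A, with 0.25 in KDM6B, given as a description across copies that share genes and libraries. In KDM4A copies in genes that fell had a median of -0.87, copies in genes that did not pass -0.32 and copies in genes that rose 0.10. In KDM4B these medians were -0.45, -0.09 and 0.25, and in KDM6A -0.20, 0.04 and 0.26. In KDM6B they were -0.62, -0.40 and -0.12, so the median copy was below 0 also in genes that rose. There 89 copies (1.04%) were called lower and 32 (0.375%) higher, against 4.43% and 0.0942% of all these intronic copies in KDM6B. In KDM4A genes that did not pass, 1370 copies (9.41%) were called lower and 176 (1.21%) higher, against 12.8% and 3.42% of all. The median difference of copy minus gene was -0.36 for KDM4A and -0.40 for KDM6B, while KDM4B gave -0.10 and KDM6A 0.04. Strand was ignored, so a copy's reads may come from its gene or from an antisense transcript, and a copy within an exon is counted in both tables.

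**Figure D5:**
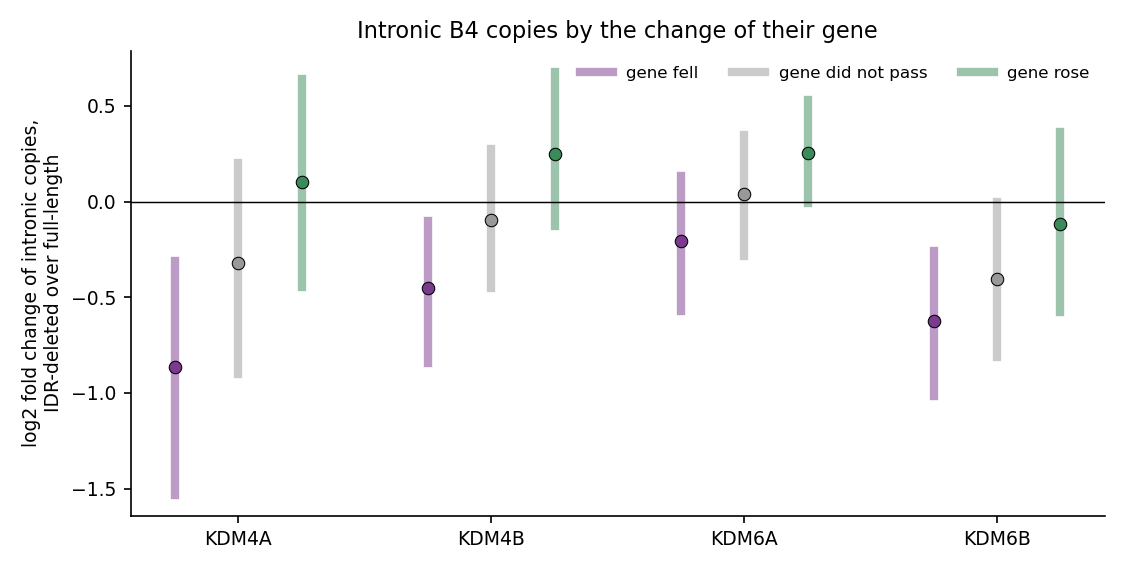
Log2 fold change of intronic B4 copies, IDR-deleted over full-length (y axis), for each demethylase (x axis), by whether the host gene fell, did not pass or rose. Points are medians and bars run over the middle quartiles; in KDM4A the medians are -0.87, -0.32 and 0.10.

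The copies with the highest level per length did not all change alike. Inside genes they were 4 copies in Mcm5, a subunit of the replicative helicase, Ccng1, which encodes cyclin G1, Slc2a3, a glucose transporter, and Zmynd8, a chromatin reader, at 326, 307, 287 and 262 CPM per kb. The Ccng1 copy (chromosome 11, 40640751 to 40640823) overlapped an exon and had 16.5 and 18.8 CPM in IDR-deleted KDM4A, against 23.9 and 26.2 CPM in full-length KDM4A (log2 fold change -0.51 ± 0.12, adjusted p = 0.0013). Its gene changed by -0.26 ± 0.04. In KDM4A the Mcm5 copy changed by -0.40 ± 0.13 (adjusted p = 0.024) and the Zmynd8 copy by -0.51 ± 0.12 (adjusted p = 0.00088), and the Slc2a3 copy was at 0.18 ± 0.10 and did not pass (adjusted p = 0.24, all edgeR). Of the 4 outside, the 2 copies of 77 bases on chromosome 6 did not pass in KDM4A, at 0.83 ± 1.09 (adjusted p = 0.67) and -1.15 ± 1.24 (adjusted p = 0.59). Just outside genes, a copy 991 bases downstream of Actb, which encodes beta-actin (chromosome 5, 142887763 to 142887879), had 10.1 and 8.87 CPM in IDR-deleted KDM4A and 26.6 and 26.0 CPM in full-length KDM4A. It fell by 1.47 ± 0.12 on the log2 scale (adjusted p = 6.3e-17), while Actb itself changed by -0.06 ± 0.03 (adjusted p = 0.14). In KDM4B the same copy rose by 0.36 ± 0.11 (adjusted p = 0.039).

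A copy 431 bases downstream of Ncl, which encodes nucleolin (chromosome 1, 86271871 to 86272010), had 12.2 and 10.8 CPM in IDR-deleted KDM4A and 32.1 and 30.7 CPM in full-length KDM4A. It fell by 1.45 ± 0.12 (adjusted p = 4.6e-16), and Ncl by 0.25 ± 0.03. In KDM4B it had 28.6 and 25.7 CPM in IDR-deleted and 44.5 and 47.2 CPM in full-length libraries, a fall by 0.76 ± 0.12. In KDM6A it had 52.2 and 50.5 CPM in IDR-deleted and 41.1 and 33.2 CPM in full-length libraries (adjusted p = 0.063, edgeR).

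Among the largest changes in KDM4A, a copy in an intron of Slco1c1 (chromosome 6, 141486049 to 141486250), which encodes a thyroid hormone transporter, had 0 reads in both IDR-deleted libraries and 1.44 and 1.40 CPM in the full-length ones. Against a floor of 3 reads over the group, which like all such bounds covers counting error only, it was at least 30.04-fold lower, and Slco1c1 itself fell by 4.11 ± 0.08. A copy in Eml6, which encodes a microtubule-associated protein (chromosome 11, 29704384 to 29704630), also had 0 reads in both IDR-deleted libraries, against 1.05 and 1.09 CPM in full-length ones, at least 22.7-fold lower. Outside genes, copies 21.8 kb upstream of Steap3 and 197 kb downstream of Gm49451 were at 0 reads in IDR-deleted KDM4A, at least 20.4-fold and 17.7-fold lower. Rises were smaller and came from an exon-overlapping copy of Hivep3, a zinc finger gene, with 1.46 and 1.20 CPM in IDR-deleted against 0.117 and 0.162 CPM in full-length libraries (3.22 ± 0.52), and one of Wbp2 (3.05 ± 0.53). Outside genes they were 6.80 kb upstream of Hnrnph1 (2.65 ± 0.51) and 25.7 kb upstream of Anxa4 (2.56 ± 0.62), which no longer passed without full-length replicate 1 (2.17, adjusted p = 0.093 in edgeR).

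In KDM4B a copy within 1700003L19Rik and a second gene (chromosome 16, 12619181 to 12619454) had 0.169 and 0.321 CPM in IDR-deleted and 3.40 and 5.58 CPM in full-length libraries. It fell by 4.17 ± 0.48 (adjusted p = 8.6e-10, edgeR). Outside genes a copy 17.3 kb downstream of Gm5268 had 2 reads in IDR-deleted and 134 in full-length KDM4B, a ratio of 82.5 (95% counting interval 22.4 to 688), and one 56.2 kb upstream of Ybx1-ps2 fell by 3.54 ± 0.52. The rises were in Ccdc172 (3.69 ± 0.70, with the gene at 2.67 ± 0.13) and in Gm30504, where 49 reads in IDR-deleted stood against 2 in full-length libraries. Outside genes they were 2.80 kb upstream of Pvrig, an immune receptor gene (3.89 ± 0.64), and 35.7 kb downstream of Gm18016 (65 reads in IDR-deleted against 2 in full-length KDM4B).

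In KDM6A the changes were smaller. A copy in Foxp1, a forkhead factor gene (chromosome 6, 99284884 to 99285152, in 2 gene spans), had 0.313 and 0.173 CPM in IDR-deleted and 1.49 and 1.14 CPM in full-length libraries, and fell by 2.45 ± 0.43. Copies in Fam83f fell by 2.70 ± 0.62, and copies in Usp13, a deubiquitinase gene, and Tmem132d rose by 1.80 ± 0.41 and 1.92 ± 0.46. Outside genes a copy 51.0 kb downstream of Gm49534 rose by 1.75 ± 0.29, with 2.24 and 3.05 CPM in IDR-deleted and 0.722 and 0.857 CPM in full-length libraries, and one 1.89 kb upstream of Mir466j fell by 2.48 ± 0.58. A copy 7.80 kb upstream of a gene without a symbol (ENSMUSG00000120538) rose by 2.15 ± 0.49, and one 1.38 kb downstream of another (ENSMUSG00000121143) fell by 1.36 ± 0.32. Each of these 8 copies lost its call without 1 or more of the 4 KDM6A libraries, and all of them did so without full-length replicate 1.

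In KDM6B, Slco1c1 copies went the other way from KDM4A. A copy in its intron (chromosome 6, 141482447 to 141482670) had 0.892 and 1.16 CPM in IDR-deleted KDM6B and 0.0867 and 0 CPM in full-length KDM6B, and rose by 4.45 ± 0.44, while in KDM4A it had 0.291 and 0.171 CPM in IDR-deleted and 5.17 and 4.63 CPM in full-length libraries. A copy 4.09 kb downstream of Slco1c1 rose by 2.42 ± 0.30 in KDM6B, and the gene itself rose by 2.98 ± 0.09. Other rises were in Tmem132d (16 reads in IDR-deleted against 1 in full-length libraries) and 61.9 kb upstream of Mrto4-ps2 (3.38 ± 0.71). The largest falls rested on few reads. Copies in Ctnnbl1 and upstream of Ros1 and Gm8940 had 0 reads in IDR-deleted KDM6B and 16, 12 and 9 reads in full-length KDM6B, at least 5.72-fold, 4.29-fold and 3.22-fold lower, and a copy in Rad51b had 1 read in IDR-deleted against 19 in full-length libraries. These 4 falls, and the rises at Tmem132d and Mrto4-ps2, no longer passed without some single library of the contrast.

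Some stretches of chromosome 16 held many called copies outside genes. They were picked for these counts, and whether called copies cluster was not tested. In KDM4A 25 of 45 tested copies between 8000001 and 9000000 on chromosome 16 were lower, and 16 of 23 between 9000001 and 10000000, where the nearest genes are Gm49451 and Grin2a and the median log2 fold change was -3.11. In KDM4B 12 of 45 and 15 of 23 were lower in the same stretches, with a median of -2.19 in the second. In KDM6B 7 of 12 tested copies at 7000001 to 8000000 on chromosome 16 were higher, with a median of 1.07. Values there ran from -5.15 to 5.47. Of all tested repeat copies outside genes, 27.9% were lower in KDM4A, 7.72% were lower in KDM4B and 1.05% were higher in KDM6B.

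Genes of the RNA polymerase III machinery, which transcribes SINEs from their own promoters, moved in both directions. Of 24 genes tested, 10 rose and 6 fell in KDM4A, 7 and 5 in KDM4B, 7 and 2 in KDM6A, with 1 and 7 in KDM6B, where 50.5%, 36.2%, 17% and 20.6% of all genes were called. Of all genes 24.6% rose and 25.9% fell in KDM4A, 18.6% and 17.6% in KDM4B, 8.3% and 8.65% in KDM6A, with 9.89% and 10.7% in KDM6B. With ERCC scaling the counts were 1 and 19, 1 and 12, 0 and 7, and 0 and 22, and with median-ratio scaling KDM4B had 6 that rose and 8 that fell. Ssb, which encodes the La protein that binds the ends of polymerase III transcripts, rose by 0.71 ± 0.04 in KDM4A and 0.32 ± 0.04 in KDM4B, neither of which passed with ERCC scaling, and Gtf3c5, a TFIIIC subunit gene, rose by 1.14 ± 0.07 in KDM4A. Polr3a, the gene of the largest polymerase III subunit, fell by 0.41 ± 0.05 in KDM4B. Gtf3c6 and Polr3f rose by 0.39 ± 0.07 and 0.31 ± 0.07 in KDM6A, where they did not pass with ERCC scaling, and Gtf3c1 and Polr3c fell by 0.28 ± 0.04 and 0.46 ± 0.07 in KDM6B.

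Of 20 genes for silencers and boundary factors linked to SINEs, 9 rose and 8 fell in KDM4A, 2 and 11 in KDM4B, 7 and 0 in KDM6A, with 1 and 3 in KDM6B. With ERCC scaling these were 1 and 16, 1 and 17, 1 and 8, and 0 and 19. Without ERCC scaling, 24.6% of all genes rose and 25.9% fell in KDM4A, with 18.6% and 17.6% in KDM4B. In KDM6A 8.3% of all genes rose and 8.65% fell, and in KDM6B 9.89% and 10.7%. Suv39h1, an H3K9 methyltransferase gene, fell by 1.14 ± 0.07 in KDM4A and 0.77 ± 0.06 in KDM4B and rose by 0.44 ± 0.06 in KDM6A. Mphosph8, of the HUSH silencing complex, rose by 1.07 ± 0.05 in KDM4A, Cbx5, which encodes HP1 alpha, fell by 0.52 ± 0.04 in KDM4B, and Trim28 rose by 0.27 ± 0.03 in KDM6A but did not pass with ERCC scaling. In KDM6B Chd4 fell by 0.25 ± 0.03, and Cbx1, which encodes HP1 beta, rose by 0.33 ± 0.05 but stood at -0.05 with ERCC scaling.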

How the data were processed

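Chromatin-associated RNA of 16 libraries was analysed from 2 deposited tables of raw read counts, one per gene and one per repeat copy. Per the file headers the authors made these counts with featureCounts 2.0.3 on HISAT2 alignments (GRCm39 plus spike-ins), with a minimum mapping quality of 30. The command in those headers counts both mates, sets no strand and assigns no read of more than 1 place or feature. The submitters' processing notes also name SAMtools, Picard and MACS2, without versions.

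Copies were placed against the spans of 56941 genes of the gene table. 6 repeat rows of several blocks were left out. Counts were scaled by TMM library sizes of the genes. Family sums, single copies and genes were tested in edgeR 4.0.16 (quasi-likelihood, robust, trended dispersion, R 4.3.3). Each had 1 fit of 16 libraries and 8 group means, with filterByExpr (minimum count 10). The ratio of outside to inside sums (pseudocount 1, families with at least 100 reads on each side) was tested in limma 3.58.1. Benjamini-Hochberg adjustment ran over all features, with a threshold of 0.05. An SE is the log2 fold change over the root of F in edgeR, and over the moderated t in limma. DESeq2 1.42.0 and other scalings, filters and places were alternatives. Scripts were tested on simulated data.

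Named copies were, per contrast, the 2 largest rises and falls inside and outside genes past the threshold, averaging 20 reads or more, with separated groups and not on chromosome 18, plus the 4 highest levels in each place. The most-read copies were singled out after their values were seen. Members, lists and rules were chosen with earlier results of these data known. 1 copy that this rule names is not reported here.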

Additional observations from a re-analysis of the deposited data

Results flagged for a closer look

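The effect of deleting the IDR differed between KDM4A and KDM4B by the interaction in the same fits (edgeR for sums, limma for the ratio). The log2 difference of KDM4A minus KDM4B was -0.078 ± 0.028 for B4 inside genes (SE, adjusted p = 0.039, scaled by the genes), -0.52 ± 0.14 outside genes (adjusted p = 0.012) and -0.45 ± 0.13 for the outside-to-inside ratio (adjusted p = 0.012). The sign of the difference inside genes depends on the scaling, since with TMM over the family sums KDM4A was at 0.25 and KDM4B at 0.041. KDM6A minus KDM6B was 0.45 ± 0.03 inside genes (adjusted p = 1.9e-07). Their differences outside genes (0.24 ± 0.14, adjusted p = 0.19) and in the ratio (-0.21 ± 0.13, adjusted p = 0.25) did not pass.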

How the results depend on the processing

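With TMM over the family sums in place of the genes, the B4 sum inside genes was 0.25 in KDM4A and 0.041 in KDM4B, both reversed, and 0.0080 in KDM6A, and outside it was -0.19 in KDM4A (adjusted p = 0.071), 0.050 in KDM4B and 0.16 in KDM6B, and the test of any difference outside gave F = 2.32 (adjusted p = 0.14). As a share of all repeat reads the inside sum was -0.0086 in KDM4A, 0.031 in KDM4B and -0.0031 in KDM6A, and the outside sum 0.039 in KDM4B and 0.072 in KDM6B. With ERCC scaling the inside sum was -0.14 in KDM6A, and the outside sum -0.32 in KDM4B and -0.53 in KDM6B, which passed, and -0.12 in KDM6A, and Cbx1 in KDM6B was -0.054. ERCC scaling called 26172 copies inside and 4075 outside in KDM4A, 4014 inside in KDM4B, 84 inside in KDM6A and 15307 inside and 809 outside in KDM6B. A fit of only 4 libraries gave -0.66 outside in KDM4A (adjusted p = 0.054), 0.063 inside in KDM6A (adjusted p = 0.28) and -0.15 outside in KDM6B (adjusted p = 0.041). At 10 kb or more from genes the outside sum was -0.36 in KDM4B and passed. The ratio there was -0.21 in KDM4B (adjusted p = 0.00027, limma), where 19 of 33 families were called and the median family was at -0.31. It was 0.36 in KDM6B (adjusted p = 7.0e-06, limma), where 20 of 33 were called and the median was 0.33. In KDM6A it was -0.044 and did not pass. Without exon-overlapping copies the KDM6B ratio was 0.26 (adjusted p = 0.034). Without the most-read copy the outside sums were -0.17 in KDM4B, 0.093 in KDM6A, with -0.18 in KDM6B, and the ratios -0.027 in KDM4B and 0.21 in KDM6B. DESeq2 called 121 copies inside and 19 outside in KDM6A. The cause of these shifts was not tested.

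In the permutation test, the outside-to-inside ratio was 0.090 without KDM4A. B4 to B1 inside was -0.021 without KDM4A and -0.034 without KDM6B (adjusted p = 0.069 each). B4 to B1 outside was -0.0020 without KDM4A, -0.052 at 10 kb or more and -0.047 without the most-read copy (adjusted p = 0.0077). B4 to B2 inside was -0.019 without KDM4A, -0.0349 without KDM4B and -0.0351 without KDM6B, and B4 to B2 outside -0.13 without KDM4A and -0.17 without KDM6B. With 3 demethylases the smallest p is 0.0093. Without KDM6A the 3 measures that passed with all demethylases still passed (adjusted p = 0.015 each).

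Leaving out each library of a contrast in turn gave 0.053 to 0.096 for the KDM6A sum inside, and ratios of -0.043 to 0.060 in KDM4B, -0.019 to 0.068 in KDM6A, with 0.15 to 0.32 in KDM6B. Copies called were 6939 to 7781 inside and 1271 to 1545 outside in KDM4A, 942 to 1053 and 169 to 198 in KDM4B, 7 to 14 and 2 to 4 in KDM6A, and 1127 to 1777 and 43 to 78 in KDM6B, each with fewer samples.

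Replicate numbers were not taken to pair the libraries, since the correlation was not over 0.1 in every contrast. Deviations of same-numbered IDR-deleted and full-length libraries correlated over genes at 0.12 in KDM4A, 0.13 in KDM4B, 0.14 in KDM6A, with -0.0026 in KDM6B, and over family sums at -0.052, 0.32, 0.39 and 0.24 in the same order. The outside-to-inside ratio was higher in the library numbered 2 in all 8 groups. Without the most-read outside copy, the share of B4 reads outside genes was lower in the library numbered 2 in IDR-deleted KDM4B and in both KDM6A groups. It was higher there in the remaining groups. With the replicate block the KDM6B outside sum was -0.15 (adjusted p = 0.047) and its ratio 0.24 (adjusted p = 0.0060), and KDM6A had 112 copies called inside and 17 outside. These copy counts stand without the share of all repeat copies, so they describe the setting and are no result about B4. The block kept the other family sums, ratios and counts on their side of the threshold or within 1.5 times.

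Of 311 alternatives for 32 copy results named, 265 stayed the same and 46 no longer passed, 41 of these with 1 library left out.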
